A study of Mus musculus with 8 samples.

Results

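The Notch pathway genes described here are 3 receptors (*Notch1*, *Notch2* and *Notch3*), 3 ligands (*Jag1*, *Jag2* and *Dll4*) and 4 target genes (*Hes1*, *Hey1*, *Heyl* and *Nrarp*). They were chosen by symbol for their roles in the pathway, with earlier results of these data known. All 10 were among the 25239 gene symbols counted. Bulk RNA-Seq was performed on E14.5 ovaries of C57BL/6 mice, in 4 libraries per genotype. Control embryos were Bmpr1a fl/fl, and the *Bmpr1a*-cKO embryos, Bmpr1a fl/fl; Oct4-Cre Cre/WT, carried the same floxed alleles with the Cre. Both were exposed through the dam to 1 mg 4-hydroxytamoxifen (4-OHT) and 0.5 mg progesterone at 9.5 dpc, 10.5 dpc and 11.5 dpc. The Cre is tamoxifen-inducible and acts in germ cells, so the supporting, stromal and vascular cells of a *Bmpr1a*-cKO ovary keep *Bmpr1a*. Every library held 2 pooled pairs of ovaries, from 8 embryos per genotype out of 6 litters, and the litter behind each library is not given in the sources used here.

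Notch receptors are cell surface proteins that are cleaved when a neighbouring cell presents a Jagged or Delta-like ligand. The freed intracellular part joins the DNA-binding protein RBPJ in the nucleus and switches on genes such as those of the *Hes* and *Hey* families and *Nrarp*, which feeds back on the pathway. In the ovary, Notch signalling between germ cells and the pregranulosa cells around them is known from the breakdown of germ cell nests and the forming of follicles, while *Dll4*, *Notch1* and *Notch3* are best known from blood vessels.

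The question here was whether transcripts of these genes differ when germ cells lack the BMP receptor. *Jag2* was downregulated in *Bmpr1a*-cKO ovaries to 60.0% of its control level, and *Hes1* fell to 78.3%. Scaling the libraries to marker genes of 1 cell type moved these calls, as it moved all genes, and those values are given with the scalings. The 3 receptors, *Jag1*, *Dll4* and the remaining target genes did not pass the test under TMM scaling. Beyond the 10, the ligand *Dll3* was upregulated from a low level, and the ligand *Dll1* was downregulated, a call that was lost when either of 2 single libraries was left out. In these whole-ovary libraries, fewer cells of a type and less RNA per cell cannot be told apart.

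The libraries held 8562961 to 15365052 counts each. A gene without a count could have had up to 3, which is 0.189 to 0.357 CPM (counts divided by the size of the library, here after TMM scaling in edgeR). The targeted gene, *Bmpr1a*, had 199 to 236 CPM in control libraries, against 185 to 209 CPM with the Cre (Log2FC = -0.16, FDR = 0.0692 by edgeR). Those counts cover the whole gene and all cells, most of which keep it, so they are a weak check of the labels. The germ cell gene *Ddx4* had a mean of 142 CPM and the pregranulosa gene *Foxl2* 118 CPM in control ovaries, against 1.10 CPM for the Sertoli cell gene *Amh*. The globin genes *Hba-a1*, *Hba-a2*, *Hbb-bt* and *Hbb-bs* had no counts in any library, whereas the erythroid gene *Alas2* had a mean of 32.8 CPM in control.

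All 10 genes were kept by the low-count filter of edgeR (filterByExpr), among 14249 genes in all. At an FDR below 0.05, 2 of the 10 (20%) changed, *Jag2* and *Hes1*, both lower. Of all genes tested, 29.8% passed that threshold and 12.5% did so with a lower level. The 20% was thus below the share passing in either direction and above the share passing as lower. It rests on 2 genes. Only *Jag2* was a differentially expressed gene (DEG), defined as an absolute Log2FC over 0.5 with an FDR below 0.05, against 10.2% of all genes (4.06% downregulated and 6.11% upregulated). The libraries of the 2 genotypes did not overlap for the same 2 genes, against 27.9% of all genes, with every *Bmpr1a*-cKO library below every control library for 11.7%. The median Log2FC of the 10 was -0.07 and that of all genes was -0.004. Under TMM scaling, the fold change was below 0 for 9 of the 10, and for 7217 of the 14249 genes tested. For most of the 9 its 95% interval spanned 0, and *Notch1*, *Notch3*, *Hey1* and *Heyl* lay within -0.019 to -0.015.

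**Figure D1:**
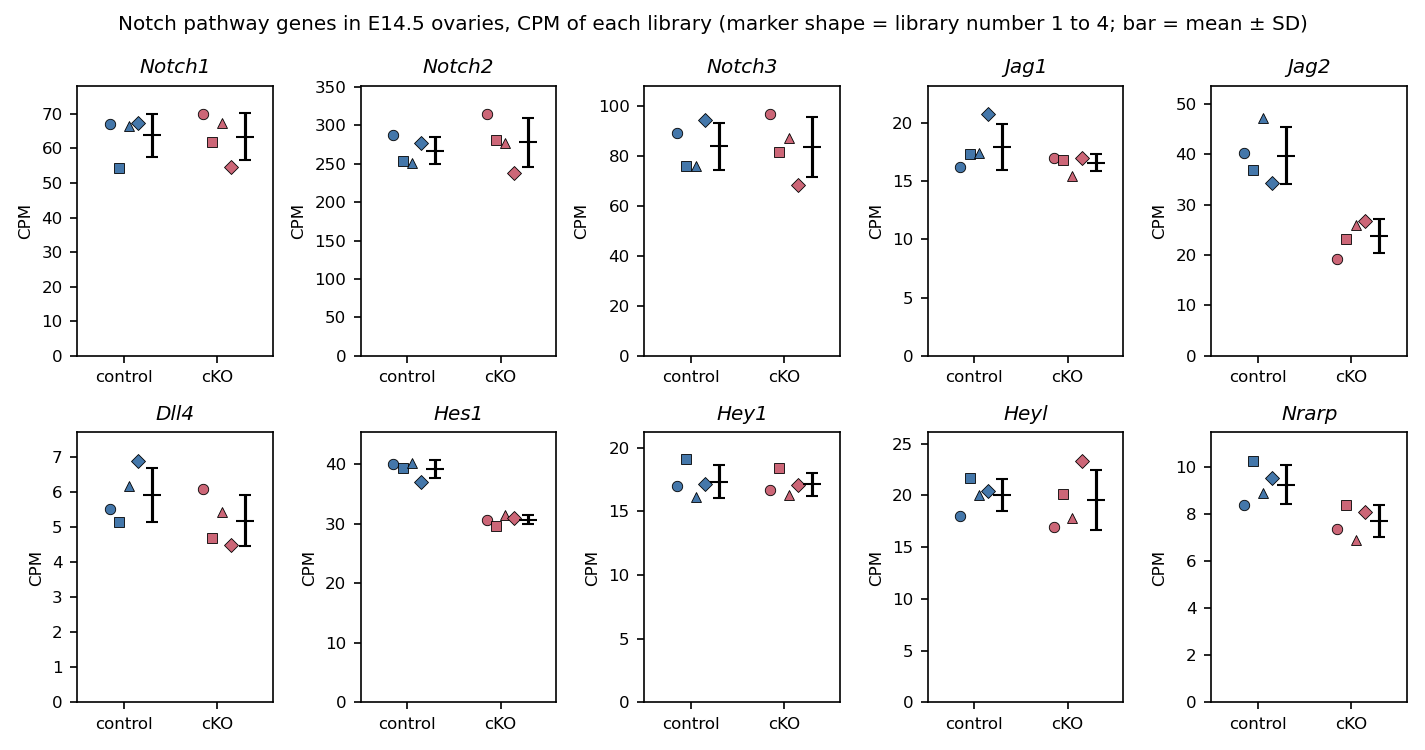
CPM of each library (points, shape by library number) for the 10 Notch genes, with the mean and SD of 4 control and 4 *Bmpr1a*-cKO libraries beside them; every axis starts at 0. Under TMM scaling the points of the genotypes separate for *Jag2* (34.4 to 47.2 against 19.3 to 26.7 CPM) and *Hes1* (37.1 to 40.3 against 29.7 to 31.5 CPM) and overlap for the other 8 genes.

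None of the 3 receptors passed the test of edgeR, at an FDR or at an unadjusted p below 0.05. *Notch2*, on chr3:98013527-98150361 (+ strand, mm10), had 251 to 287 CPM in control libraries and 237 to 315 CPM in *Bmpr1a*-cKO libraries, and its fold change had a 95% interval of -0.11 to 0.22 (Log2FC = 0.05, FDR = 0.648). *Notch3*, on chr17:32120820-32166852 (- strand), had 76.0 to 94.7 CPM against 68.4 to 96.9 CPM (interval -0.23 to 0.19, FDR = 0.925). *Notch1*, on chr2:26457903-26516663 (- strand), had 54.4 to 67.3 CPM against 54.7 to 69.9 CPM (interval -0.20 to 0.17, FDR = 0.917). The control and *Bmpr1a*-cKO ranges overlapped almost fully for all 3, and the intervals leave no room for a difference as large as the DEG threshold under TMM scaling. *Notch4*, the endothelial receptor outside the 10, had a wider interval (-0.29 to 0.33, FDR = 0.935). *Notch1* is overlapped by 2 genes on the opposite strand, *Notch3* by *Gm17276* on the opposite strand and *Notch2* by *Gm42820* on its own strand, so their counts are less certain.

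Levels of different genes were compared per kb of exon (GENCODE vM21, mm10). *Notch2* had the highest level in control, with 24.8 ± 1.65 CPM per kb (SD, n = 4), followed by *Notch3* with 10.4 ± 1.17 and *Notch1* with 4.48 ± 0.441 CPM per kb. Of the 4 receptors together, *Notch2* held 59.8% ± 1.41 in control and 60.8% ± 1.08 in *Bmpr1a*-cKO ovaries (SD, n = 4 each). *Notch3* held 25.0% and 24.4%, *Notch1* 10.8% and 10.5%, and *Notch4* 4.29% and 4.34%. The ranges of each receptor's share overlapped between the genotypes.

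Among the ligands, *Jag2* had the clearest difference. It lies on chr12:112907819-112929776 (- strand), and no annotated gene overlaps it. Its level in the control libraries was 40.3, 36.8, 47.2 and 34.4 CPM, from 416 to 545 counts. In the *Bmpr1a*-cKO libraries it was 19.3, 23.2, 26.0 and 26.7 CPM, from 162 to 392 counts. The lowest control library thus lay above the highest *Bmpr1a*-cKO library. The mean fell from 39.7 ± 5.61 to 23.8 ± 3.38 CPM (SD, n = 4 each), a Log2FC of -0.72 with a standard error of 0.111 and a 95% interval of -0.96 to -0.49 (FDR = 0.000188 by edgeR). The spread was alike in both groups, at 14.1% and 14.2% of the mean. With any 1 library left out, the Log2FC ran from -0.80 to -0.64 and the FDR was at most 0.00133.

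*Jag1*, the Jagged paralogue best known from germ cells of the later ovary, had 16.2, 17.3, 17.4 and 20.8 CPM in control libraries and 17.0, 16.9, 15.5 and 17.0 CPM in *Bmpr1a*-cKO libraries. These ranges overlapped, and the fold change had an interval of -0.32 to 0.09 (Log2FC = -0.12, FDR = 0.392). *Dll4*, the ligand of sprouting endothelium, had 5.13 to 6.87 CPM against 4.50 to 6.07 CPM (interval -0.55 to 0.10, FDR = 0.303). The *Dll4* interval reached past the DEG threshold, so a difference of that size is not excluded at its depth of 51 to 109 counts per library. *Dll4* is also overlapped on the opposite strand by *Gm14207*.

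*Dll1* and *Dll3* complete the canonical ligands, and both were DEGs. *Dll1*, a ligand that activates receptors of neighbouring cells, had 9.69, 9.91, 12.3 and 7.82 CPM in control libraries and 4.76, 6.39, 7.53 and 8.04 CPM in *Bmpr1a*-cKO libraries. The ranges overlapped by the fourth library of each genotype, and the Log2FC was -0.54 (interval -0.89 to -0.18, FDR = 0.0246). Its call was lost without control library 3 (Log2FC = -0.43, FDR = 0.0729) or *Bmpr1a*-cKO library 2 (Log2FC = -0.51, FDR = 0.0735). It was also lost with the libraries scaled to endothelial (Log2FC = -0.42, FDR = 0.111) or pregranulosa markers (Log2FC = -0.13, FDR = 0.564). The gene *A930024N18Rik* overlaps *Dll1* on the opposite strand.

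*Dll3*, a divergent ligand that acts mainly inside the cell that makes it, had 0.986, 0.885, 1.40 and 1.32 CPM in control (10 to 21 counts). In *Bmpr1a*-cKO libraries it had 2.98, 2.97, 2.61 and 2.59 CPM (25 to 40 counts), all of them above every control library. The Log2FC was 1.26 (interval 0.79 to 1.73, FDR = 0.000541), and no annotated gene overlaps it. The FDR was at most 0.00324 with any 1 library left out. It remained the least abundant of the 5 ligands per kb in both genotypes, with 0.403 ± 0.0887 and 0.978 ± 0.0756 CPM per kb.

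The makeup of the ligand transcripts differed accordingly. Per kb of exon, *Jag2* held 43.5% ± 3.18 of the 5 ligands in control and 33.5% ± 2.99 in *Bmpr1a*-cKO ovaries (SD, n = 4 each), with no overlap between libraries. The share of *Dll3* was 3.07% ± 0.531 in control and 9.67% ± 1.27 in *Bmpr1a*-cKO ovaries, again without overlap. *Jag1* went from 23.7% to 28.1%, *Dll4* from 11.8% to 13.3% and *Dll1* from 17.9% to 15.5%, and the ranges of these 3 overlapped. *Jag2* was the most abundant ligand per kb in all 4 control libraries and in 3 of the 4 *Bmpr1a*-cKO libraries, and in library 1 it lay below *Jag1* (2.77 against 2.92 CPM per kb). These shares need no scaling between libraries and are given as a description of the levels above.

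**Figure D2:**
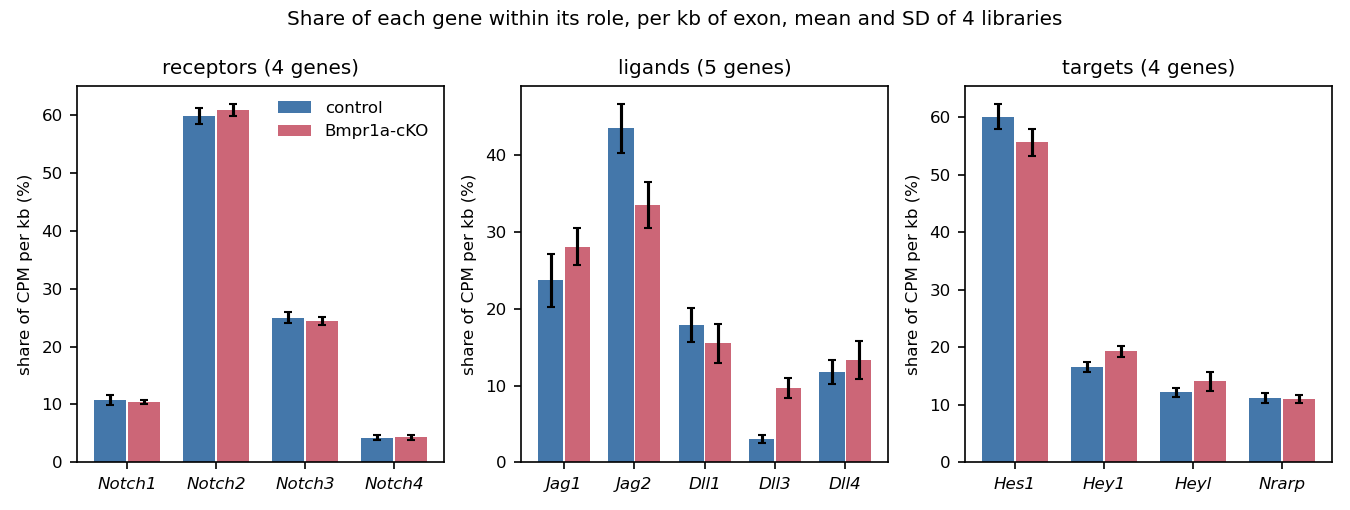
Share of each gene, in percent of the CPM per kb of exon of its group, in control and *Bmpr1a*-cKO ovaries for the 4 receptors, 5 ligands and 4 targets; bars are means and whiskers SD of 4 libraries. The receptor bars sit side by side in pairs of like height, while the *Jag2* bar is 43.5% in control and 33.5% in *Bmpr1a*-cKO and the *Dll3* bar 3.07% and 9.67%.

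By the order of levels per kb, *Jag2* moved from the fourth place among these 13 receptors, ligands and targets in control (5.70 ± 0.805 CPM per kb) to the seventh in *Bmpr1a*-cKO ovaries (3.42 ± 0.485 CPM per kb). In control its range overlapped that of *Hey1*, next in order. In *Bmpr1a*-cKO ovaries its range, 2.77 to 3.84 CPM per kb, lay below those of *Hey1* and overlapped those of *Heyl* and *Nrarp*. The 3 most abundant genes, *Notch2*, *Hes1* and *Notch3*, kept their order in both genotypes, and the range of each was apart from that of the next. From *Notch1* down to *Dll4*, neighbours in the control order had overlapping ranges.

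*Hes1*, a transcriptional repressor and the classical Notch target, was the most abundant target, with 19.3 ± 0.729 CPM per kb in control and 15.1 ± 0.362 CPM per kb in *Bmpr1a*-cKO ovaries. It lies on chr16:30064384-30067796 (+ strand) with no overlapping gene. The control libraries had 40.1, 39.4, 40.3 and 37.1 CPM, and the *Bmpr1a*-cKO libraries had 30.6, 29.7, 31.5 and 30.9 CPM. The libraries of one genotype lay close together, at 3.79% and 2.41% of the mean, and the genotypes did not overlap. The Log2FC was -0.35 with a standard error of 0.0658 (interval -0.49 to -0.21, FDR = 0.000927 by edgeR), short of the DEG threshold. With any 1 library left out it ran from -0.39 to -0.34, with an FDR of at most 0.00616. *Hes1* also responds to other signals in many tissues, and these libraries do not separate them.

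*Nrarp*, a small ankyrin repeat protein that dampens Notch signalling, had 8.38, 10.3, 8.89 and 9.52 CPM in control libraries and 7.38, 8.39, 6.90 and 8.11 CPM in *Bmpr1a*-cKO libraries. A single *Bmpr1a*-cKO library reached the lowest control library (8.39 against 8.38 CPM). The Log2FC was -0.26 (interval -0.51 to -0.002) with an unadjusted p of 0.0481 and an FDR of 0.122, so it did not pass. *Nrarp* is overlapped on the opposite strand by *Gm38287*.

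*Hey1* and *Heyl*, hairy-related repressors of vessels and other tissues, had Log2FC of -0.01 and -0.02 under TMM scaling. *Hey1* had 16.1 to 19.1 against 16.3 to 18.4 CPM (interval -0.20 to 0.17, FDR = 0.923). *Heyl* had 18.0 to 21.7 against 16.9 to 23.4 CPM (interval -0.24 to 0.20, FDR = 0.916). Both pairs of ranges overlapped widely, unlike those of *Hes1*. Per kb, *Hes1* held 60.1% ± 2.20 of the 4 targets in control and 55.6% ± 2.37 in *Bmpr1a*-cKO ovaries (SD, n = 4 each), with an overlap. *Hey1* held 16.6% ± 0.908 and 19.3% ± 0.906, with none.

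**Figure D3:**
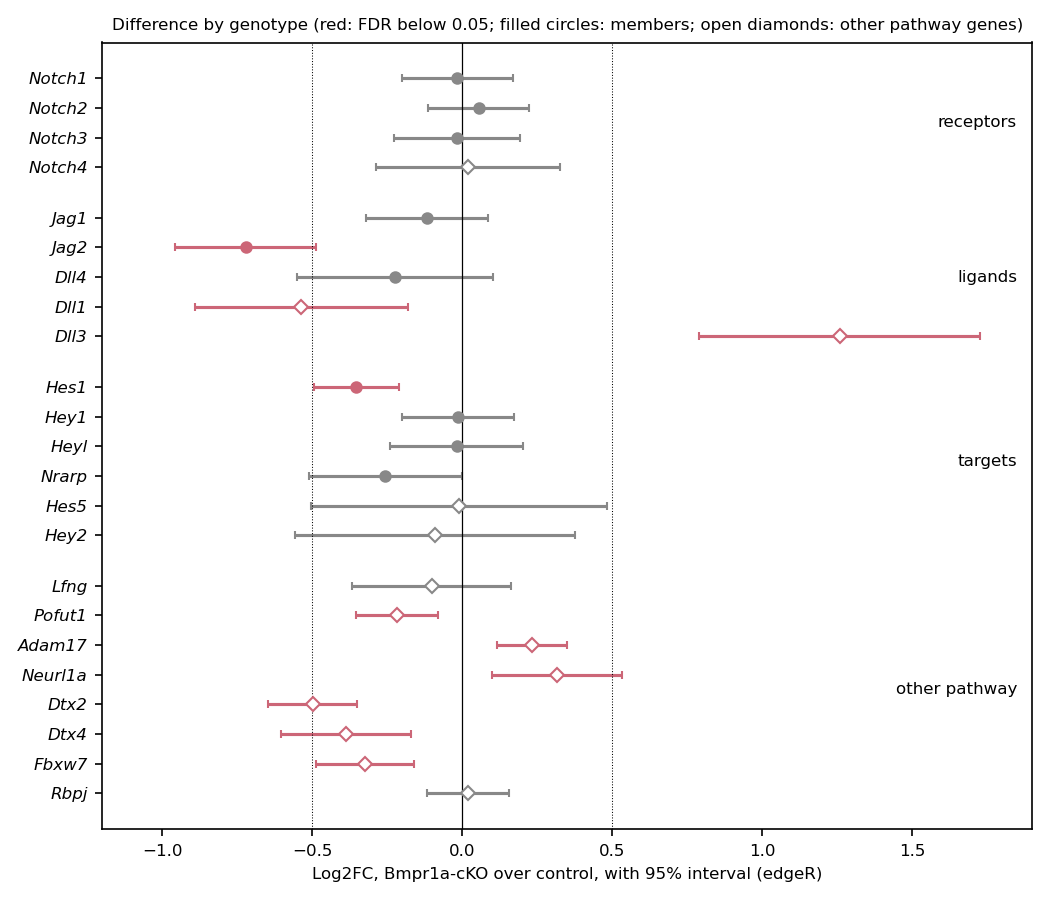
Log2FC of *Bmpr1a*-cKO over control with 95% intervals from edgeR (TMM scaling) for the 10 Notch genes (filled circles) and other pathway genes (open diamonds), grouped by role, with red for an FDR below 0.05 and dotted lines at the DEG threshold of 0.5 on either side. *Jag2* (-0.72), *Hes1* (-0.35) and *Dll1* (-0.54) lie below 0 and *Dll3* (1.26) above it. Other scalings are not drawn here, and *Hes1* was at 0.05 with the libraries scaled to pregranulosa markers.

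The other genes of the pathway were taken from a list of 50, of which 45 were tested. An FDR below 0.05 was reached by 8 of them (17.8%, against 29.8% of all genes), 3 higher and 5 lower, and their median Log2FC was -0.01. Of the fringe and glycosylation genes, 1 of 6 changed. It was *Pofut1*, which adds the fucose that receptors need (84.4 ± 3.74 CPM against 72.8 ± 4.97 CPM, SD, n = 4 each, Log2FC = -0.22, FDR = 0.0194), while *Lfng*, which extends that fucose, had a Log2FC of -0.10 (FDR = 0.587). Of the 9 cleavage genes, only *Adam17*, a protease that can shed receptors, changed, from 79.7 ± 2.78 to 93.6 ± 1.36 CPM (Log2FC = 0.23, FDR = 0.00497). The 7 genes of the gamma-secretase complex did not pass, with *Psen2* and *Aph1b* at an unadjusted p below 0.05.

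Of the 12 genes for endocytosis and ubiquitination, 3 were lower and 1 was higher at an FDR below 0.05. That is 33.3%, near the 29.8% of all genes tested. *Dtx2*, a Deltex ubiquitin ligase, had 49.1 to 57.3 CPM in control libraries and 36.4 to 38.8 CPM in *Bmpr1a*-cKO libraries, which did not overlap (Log2FC = -0.498, FDR = 8.17e-05). *Dtx4* (Log2FC = -0.39, FDR = 0.00989) and *Fbxw7*, which marks the cleaved receptor for decay (Log2FC = -0.32, FDR = 0.00492), were lower as well. *Neurl1a*, a ligase that acts on ligands, was higher (Log2FC = 0.32, FDR = 0.0290), whereas *Mib1*, the main ligase for ligand endocytosis, had a Log2FC of 0.03 (FDR = 0.741).

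In the nucleus, *Rbpj*, the DNA-binding partner of all 4 receptors, had 99.4 to 110 CPM against 97.3 to 115 CPM (Log2FC = 0.02, interval -0.12 to 0.16, FDR = 0.849). None of the 11 nuclear genes tested passed at an FDR below 0.05 by edgeR, and 1 of them, *Snw1*, had an unadjusted p below 0.05. Of the 6 further *Hes* and *Hey* genes, 3 were expressed highly enough to be tested and none passed, with 1 (*Hes6*) at an unadjusted p below 0.05. *Hes5* had 2.34 ± 0.595 and 2.25 ± 0.475 CPM and *Hey2* 3.09 ± 0.856 and 2.91 ± 0.355 CPM (SD, n = 4 each). Their intervals, -0.50 to 0.48 and -0.56 to 0.38, were too wide at these counts to show a difference the size of that of *Hes1*.

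Markers of the cell types of the ovary were summed in each library to set beside these levels. All 8 pregranulosa markers (*Foxl2*, *Wnt4*, *Fst*, *Rspo1*, *Irx3*, *Irx5*, *Bmp2* and *Lgr5*) were lower in *Bmpr1a*-cKO ovaries at an FDR below 0.05. Their summed level was 810 to 875 CPM in control libraries and 593 to 745 CPM in *Bmpr1a*-cKO libraries. Their mean log2 CPM differed by -0.40 (two-sided exact permutation p = 0.0286, which no comparison of this size can go below, and 0.0952 after Benjamini-Hochberg adjustment over 10 marker lists). Of the 8 germ cell markers, 4 were higher and 3 lower, and their mean log2 CPM differed by 0.04 (exact permutation p = 0.857). *Dazl* rose (Log2FC = 0.63) while *Sycp3* fell (Log2FC = -1.36), and *Ddx4* had a Log2FC of 0.12 (FDR = 0.561).

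None of the 10 endothelial, 6 mural or 6 stromal markers passed at an FDR below 0.05 by edgeR, with 1 endothelial and no other marker of these lists at an unadjusted p below 0.05. The summed endothelial level was 351 to 412 CPM against 328 to 381 CPM, and the mean log2 CPM of the list differed by -0.10 (exact permutation p = 0.200). For mural and stromal markers the differences were -0.05 (p = 0.429) and -0.07 (p = 0.343), by the same exact test.

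**Figure D4:**
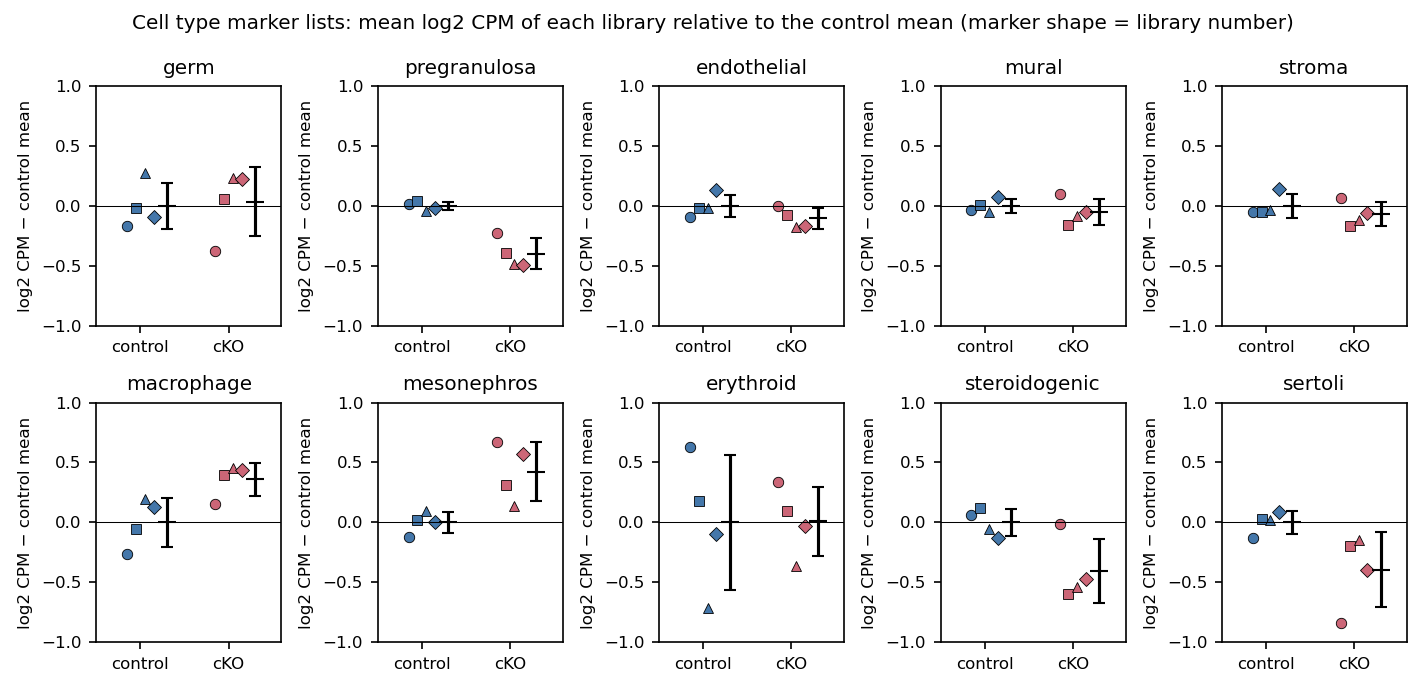
Mean log2 CPM of 10 cell type marker lists in each library, relative to the control mean of the list (points, shape by library number), with mean and SD of 4 libraries per genotype. The *Bmpr1a*-cKO libraries lie below the control libraries for the pregranulosa list (a mean difference of -0.40) and the Sertoli cell list (-0.39). They lie above them for the mesonephros list (0.42, resting on *Spp1*). The ranges of the genotypes overlap for the germ cell, endothelial, mural, stromal, macrophage, erythroid and steroidogenic lists.

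The 2 genes that changed were set against different markers. Their ratios therefore do not compare the 2 genes with each other. Within libraries, *Hes1* per summed pregranulosa CPM was 0.0463 ± 0.00247 in control and 0.0478 ± 0.00540 in *Bmpr1a*-cKO ovaries, with overlapping ranges (exact permutation p = 0.714). Per *Foxl2* it was 0.328 to 0.338 in control libraries and higher, 0.347 to 0.432, in all 4 with the Cre (exact permutation p = 0.0286). Per *Hey1* it was 2.27 ± 0.199 and 1.80 ± 0.133, with every *Bmpr1a*-cKO library lower (exact permutation p = 0.0286). *Hes1* was thus lower relative to another Notch target of the same library, and overlapped relative to the summed pregranulosa markers.

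*Jag2* per *Ddx4*, a germ cell gene that did not pass the test, was 0.281 ± 0.0297 in control and 0.159 ± 0.0188 in *Bmpr1a*-cKO ovaries, without overlap (exact permutation p = 0.0286). This ratio depends on the marker chosen, as 4 of the 8 germ cell markers were higher and 3 lower. *Jag2* was at 60.0% of its control mean, beside 57.0% for *Mael*, 38.3% for *Sycp3* and 155% for *Dazl*. Per *Jag1*, *Jag2* was 2.25 ± 0.465 and 1.44 ± 0.242, where 1 *Bmpr1a*-cKO library (1.68) reached past the lowest control library (1.65; exact permutation p = 0.0571). *Jag2* per *Dll1* was 4.03 ± 0.306 and 3.61 ± 0.316 (exact permutation p = 0.114), as both ligands were lower together. In all 14 such ratios were computed, after the values had been seen, and the smallest p after Benjamini-Hochberg adjustment over them was 0.0667. The ratios of *Dll4*, *Nrarp*, *Hey1* and *Notch1* to the endothelial markers and of *Notch3* to the mural markers had exact permutation p of 0.257 to 0.914. The part that cell numbers play in the *Hes1* and *Jag2* levels was not tested.

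In 1 library of each genotype, *Jag2* and the germ cell markers stood out together. Among the controls *Jag2* was highest in library 3, where the germ cell markers had their highest mean log2 CPM (5.38 against 4.95 to 5.10 in the other 3). Among *Bmpr1a*-cKO libraries it was lowest in library 1, where those markers had their lowest value (4.74 against 5.18 to 5.35). The lowest control and the highest *Bmpr1a*-cKO level of *Jag2* were both in library 4. The mean log2 CPM of the germ cell markers was not at its extreme there. It was 5.02 in control (4.95 in library 1) and 5.34 in *Bmpr1a*-cKO (5.35 in library 3). *Ddx4* alone was at both extremes in library 4, lowest among controls (120 CPM) and highest among *Bmpr1a*-cKO libraries (179 CPM). Around the genotype means, *Jag2* had a Pearson r of 0.885 with the germ cell list and 0.833 with *Ddx4*. The 3 genes of at least 10 CPM whose log2 CPM moved most like that of *Jag2* around the genotype means were *Cdc7* (Pearson r = 0.992), *Cops8* (0.990) and *Gtf3a* (0.987), over 8 libraries and among 10204 genes. In all, 134 genes had an r over 0.9, and as the libraries share depth and cell makeup this is a description only. These 3 genes did not pass the test between genotypes themselves, with FDRs of 0.0867, 0.288 and 0.0596 by edgeR.

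The scale on which libraries were compared mattered for direction. Under 7 scalings the Log2FC of *Jag2* was below 0 in all, from -1.16 with libraries scaled to germ cell markers to -0.32 with pregranulosa markers, where its FDR of 0.0693 missed the threshold. *Hes1* was below 0 under 6 of them, missed the threshold with endothelial markers (Log2FC = -0.24, FDR = 0.109) and was 0.05 with pregranulosa markers (FDR = 0.698). These marker scalings moved the median Log2FC of all genes to -0.41 (germ cell), 0.11 (endothelial) and 0.40 (pregranulosa), and the others left it between -0.06 and -0.004. With pregranulosa scaling *Notch1*, *Notch2*, *Notch3*, *Jag1*, *Hey1* and *Heyl* passed as higher, as 66% of all genes passed in either direction. With germ cell scaling *Jag1*, *Dll4* and *Nrarp* passed as lower beside *Jag2* and *Hes1*, among 36.7% of all genes. Relative to the median of all genes, *Hes1* lay at -0.35 and *Jag2* at -0.74 to -0.72 under every one, since a scaling shifts all genes together. Of the 6 germ cell markers used for scaling, 5 had themselves passed the test, as had all 8 pregranulosa markers, and the pregranulosa scaling was added after the values were seen.

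**Figure D5:**
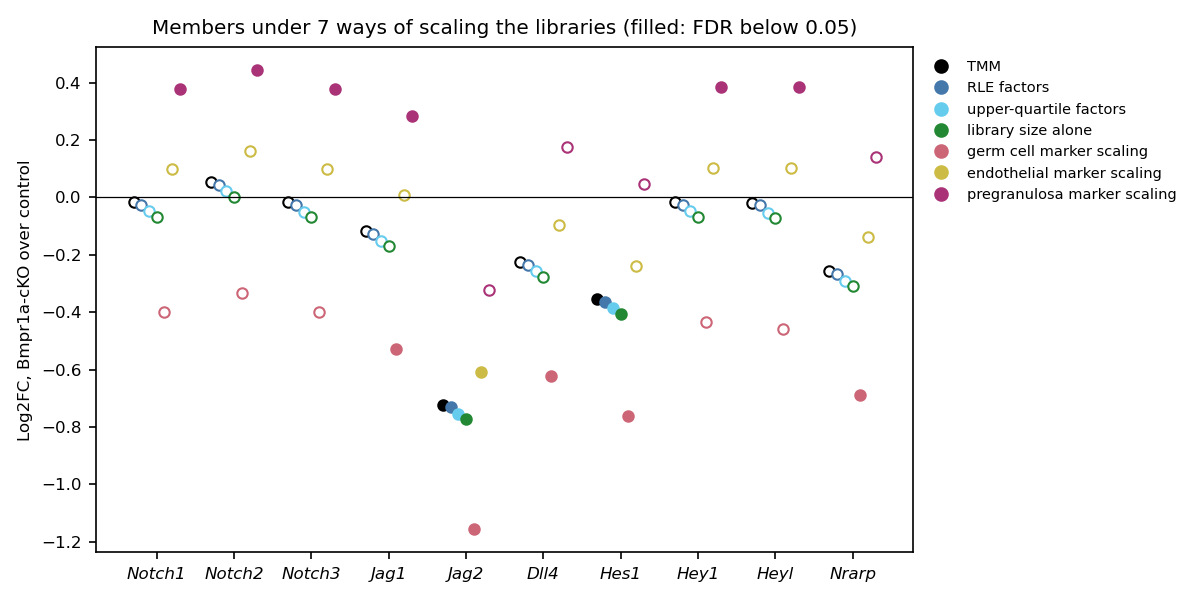
Log2FC of *Bmpr1a*-cKO over control for the 10 Notch genes under 7 scalings of the libraries (colours), with filled points for an FDR below 0.05 by edgeR. *Jag2* is below 0 under all 7 and *Hes1* under 6, whereas *Notch1*, *Notch2*, *Notch3*, *Jag1*, *Dll4*, *Hey1*, *Heyl* and *Nrarp* have points on both sides of 0.

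Start site windows were read from RefSeq (GRCm38.p6; 250 bases before to 50 after a start) for 7 of the 10 genes, namely the 3 receptors, the 3 ligands and *Nrarp*, and also for *Dll1*, *Dll3* and *Notch4*. They were searched on both strands for TGGGAA, the core bound by RBPJ, GGCGCC, a core bound by BMP-responsive SMADs, and CACGTG, an E-box of the kind bound by HES and HEY proteins. Among all 32851 windows, 25.6% held TGGGAA, 11.9% GGCGCC and 7.15% CACGTG. None of the 7 held TGGGAA or GGCGCC, and *Nrarp* alone held CACGTG, once, at position -108 from its start. One of the windows of *Dll1* held GGCGCC at position -169. As 3 of the 10 genes had no window, no share over the group is given, and a match or its lack is a description of these letters only. The bases before the start are shown for *Nrarp* (chr2:25180508-25180757, + strand), where the capitals mark CACGTG, and for *Dll1* (chr17:15376933-15377182, - strand), the downregulated Delta-like ligand, whose window here held none of the 3 motifs.
*Nrarp*: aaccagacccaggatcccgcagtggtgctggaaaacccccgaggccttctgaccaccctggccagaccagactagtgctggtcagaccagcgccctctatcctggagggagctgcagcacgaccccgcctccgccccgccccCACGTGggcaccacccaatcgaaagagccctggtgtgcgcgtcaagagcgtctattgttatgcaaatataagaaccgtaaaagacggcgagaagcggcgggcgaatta
*Dll1*: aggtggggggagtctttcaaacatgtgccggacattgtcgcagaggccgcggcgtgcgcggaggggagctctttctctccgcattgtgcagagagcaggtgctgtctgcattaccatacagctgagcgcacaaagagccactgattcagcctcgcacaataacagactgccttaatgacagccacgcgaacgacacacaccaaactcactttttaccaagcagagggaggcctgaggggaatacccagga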

How the data were processed

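Bulk RNA-Seq of 8 pools of E14.5 ovaries was analysed. According to the submitters' processing notes, reads were trimmed with Trimmomatic 0.39, checked with FastQC 0.11.9 and mapped with STAR 2.5.2 to mm10. The authors deposited, for each library, whole-number counts of reads per gene symbol, without normalization. The libraries were stranded, and whether the counting used strand is not given in the sources used here. A deposited table of signal (counts divided by 1 factor per library, 14244 genes) served only as an alternative filter. From the counts, CPM, fold changes and FDRs were computed with edgeR 4.0.16 in R 4.3.3: filterByExpr with genotype as the group, TMM scaling and the quasi-likelihood F test (two-sided), and FDRs are Benjamini-Hochberg values over every gene tested. CPM used all counts of a library, *Rn45s* included (13.1% to 16.7% of them). Log2 CPM of single libraries had a prior count of 2, and intervals are 95%. With 4 against 4 libraries (70 arrangements), exact permutation tests go down to p = 0.0286. Floors cover counting error only, and p-values measure the spread between pools, whose litters could not be entered as a factor.

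The 10 genes, the 50 other pathway genes and the marker lists were chosen with earlier results of these data known. Genes named were all 10, the DEGs among the 50, *Rbpj*, *Notch4*, *Dll1*, *Dll3*, *Hes5*, *Hey2* and *Lfng*, and the 3 genes most like each DEG among the 10. Other genes named, *Dtx2* and *Pofut1* among them, were chosen after their values were seen. Alternatives were limma-voom (limma 3.58.1), DESeq2 1.42.0, a likelihood ratio test in edgeR, 6 other scalings, other filters, a fit without *Rn45s*, a replicate block, fits lacking 1 library and an absolute Log2FC over 1. The procedure was tested on simulated data. No library was left out of the values given.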

Additional observations from a re-analysis of the deposited data

Results flagged for a closer look

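Within the control group, *Notch1* had 54.4 CPM in library 2 and 66.4 to 67.3 CPM in the other 3, a gap that took up 0.93 of the group's range. Within the *Bmpr1a*-cKO group, *Jag1* had 15.5 CPM in library 3 and 16.9 to 17.0 CPM in the other 3, a gap of 0.891 of the range. These were 2 of the 20 groups of 4 libraries examined (10 genes in each genotype), where chance alone sets about 1 in 20 apart. Neither gene passed the test between genotypes with any 1 library left out (FDR of 0.425 or more for *Notch1* and 0.260 or more for *Jag1*, by edgeR).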

How the results depend on the processing

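The tests of edgeR by likelihood ratio, limma-voom and DESeq2, the RLE, upper-quartile and library size scalings, 3 other filters, the fit without *Rn45s* and every fit with 1 library left out called *Jag2* and *Hes1* and no other of the 10. With 1 library left out, the Log2FC ran from -0.80 to -0.64 for *Jag2* and from -0.39 to -0.34 for *Hes1*. The replicate number as a block also left 2 of the 10 with an FDR below 0.05 and 1 DEG, with 4771 genes called in all against 4242 without it. Same-numbered libraries deviated together only in part (r of 0.198, 0.161, 0.108 and -0.087), and 2 of the 4 control libraries were most like the *Bmpr1a*-cKO library of their own number, so the number was not taken as a pairing. At an absolute Log2FC over 1, 0 of the 10 were DEGs.

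Germ cell marker scaling gave 5 of the 10 with an FDR below 0.05, 5 DEGs and 14 other pathway genes, where 36.7% of all genes passed and 4704 were DEGs. Endothelial scaling gave 1 and 4 other pathway genes (24.6% of all genes). Pregranulosa scaling gave 6, 0 DEGs and 33, where 66% of all genes passed and 4791 were DEGs. With 1 library left out, the other pathway genes numbered 5 to 12 against 8, with 5 without *Bmpr1a*-cKO library 2. *Hes1* was at -0.24 (FDR = 0.109) with endothelial and 0.047 (FDR = 0.698) with pregranulosa scaling, where *Jag2* was at -0.32 (FDR = 0.0693).

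Fold changes near 0 under TMM scaling changed sign under some alternatives. *Dll4* (-0.22), *Nrarp* (-0.26) and *Hes1* (-0.35) were further from 0 and did so with pregranulosa scaling, *Hes1* to 0.047. With germ cell scaling *Notch2* was at -0.33, *Rbpj* at -0.40 and *Notch4* at -0.35. With endothelial scaling *Notch1* was at 0.10, *Notch3* at 0.10, *Jag1* at 0.007, *Hey1* at 0.10, *Heyl* at 0.10, *Hes5* at 0.11, *Hey2* at 0.041 and *Lfng* at 0.011. With pregranulosa scaling *Notch1* was at 0.38, *Notch3* at 0.38, *Jag1* at 0.28, *Dll4* at 0.17, *Hey1* at 0.39, *Heyl* at 0.38, *Nrarp* at 0.14, *Hes5* at 0.38, *Hey2* at 0.31 and *Lfng* at 0.30. *Rbpj* and *Notch4* were both at -0.014 with upper-quartile and -0.033 with library size scaling, and limma-voom put *Notch4* at -0.021 and *Hes5* at 0.013. With library size scaling the germ cell list differed by -0.015 and the erythroid list by -0.042. With 1 library left out the Log2FC ran from -0.092 to 0.047 for *Notch1*, -0.011 to 0.118 for *Notch2*, -0.093 to 0.067 for *Notch3*, -0.054 to 0.025 for *Hey1*, -0.129 to 0.040 for *Heyl*, -0.018 to 0.064 for *Rbpj*, -0.076 to 0.142 for *Notch4*, -0.164 to 0.151 for *Hes5* and -0.265 to 0.056 for *Hey2*. The cause of these shifts between scalings is their construction, since each moves all genes together. Depth limits *Dll3*, *Hes5* and *Hey2* most, at 10 to 62 counts a library.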

Other observations

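Other cell types had values of their own beside the Notch genes. Among macrophage markers, *Csf1r* (Log2FC = 0.37, FDR = 0.0142) and *Adgre1* (Log2FC = 0.78, FDR = 0.00227) were higher in *Bmpr1a*-cKO ovaries, 2 of the 5 tested, and the mean log2 CPM of the list differed by 0.36 (exact permutation p = 0.0571). Of the 5 mesonephros markers only *Spp1* passed, with a mean of 1.69 CPM in control against 19.7 CPM (FDR = 8.44e-10), whereas *Pax2*, *Pax8*, *Cdh16* and *Lhx1* did not, so the list difference of 0.42 (exact permutation p = 0.0286) rests on 1 gene. Steroidogenic markers differed by -0.40 (exact permutation p = 0.0857), with *Hsd3b1* lower (Log2FC = -0.63, FDR = 0.00561). Sertoli cell markers differed by -0.39 (exact permutation p = 0.0286, and 0.0571 with a prior count of 0.5), with *Sox9*, also expressed at a low level here, going from 9.24 to 6.83 CPM (FDR = 0.0135), and erythroid markers differed by 0.01 (exact permutation p = 1). After Benjamini-Hochberg adjustment over the 10 marker lists, no list had a p below 0.0952.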
